A study of Mus musculus with 6 samples.

Results

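The protein part of the cytosolic ribosome was examined at the RNA level in small-intestinal adenomas of mice. The members are the protein-coding genes of the count tables whose symbols are those of large-subunit (Rpl) or small-subunit (Rps) ribosomal proteins, with the stalk genes Rplp0, Rplp1 and Rplp2 and the laminin-receptor gene Rpsa. The rule used names alone and no measured value, and it found 83 of 46078 genes, 51 for the large and 32 for the small subunit. The Ensembl identifiers were matched to symbols in GENCODE M21. Fau, which encodes a ribosomal protein fused to a ubiquitin-like moiety, does not carry such a symbol and is described apart.

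RNA was sequenced from 6 libraries, each a pool of 3 adenomas from 1 mouse, so that the mouse is the replicate. All mice were 18 weeks old, of the strain labelled C57BL6/SV129, and carried ApcMin/+, an allele that truncates Apc, a brake on Wnt signalling. The 3 knockout mice had the genotype miR-34a/b/c-/-;ApcMin/+ and the 3 wild-type mice had miR-34a/b/c+/+;ApcMin/+, so the wild-type mice are tumour-bearing Apc mutants too and no normal mucosa enters the comparison. The labels give the deletion as a genotype of the animal and name no Cre or tissue restriction. The question put to these genes was whether their RNA levels differ between adenomas with and without the miR-34 family.

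Each ribosome holds 1 copy of nearly every ribosomal protein, and proliferating cells spend much of their transcription and translation on making them. Their mRNAs start with a run of pyrimidines, the terminal oligopyrimidine (TOP) motif, through which mTOR signalling and the La-related protein LARP1 control translation. In intestinal tumours that lose Apc, Wnt signalling raises the transcription factor Myc, which drives ribosome production. A surplus of free Rpl5 and Rpl11 binds Mdm2 and activates p53, the transcription factor that induces the miR-34 genes.

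Read counts per gene were deposited, and library totals lay between 26375035 and 38354355. Levels are given below as CPM, counts scaled to a common library size after TMM, a correction for library composition. Nothing beyond the mouse of origin separates the libraries in the labels, and no 2 libraries agreed within sampling noise. The labels' genotype could not be checked on the deleted genes, because the rows of Mir34a, Mir34b and Mir34c held 0 counts in all 6 libraries. The labelled intestinal epithelium was visible in every library. All 12 epithelial marker genes had enough counts to be tested, and their summed level was 13572 to 17996 CPM in the knockouts against 16028 to 20377 CPM in wild-type.

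No ribosomal protein gene differed between the genotypes by the test, and the whole family moved up and down together from mouse to mouse. Of the 83 members, 80 had enough counts to be tested by the edgeR quasi-likelihood test. None passed an adjusted p (Benjamini-Hochberg) of 0.05, against 16 of all 17254 genes tested (0.0927%), and the lowest adjusted p of a member was 0.762. At an unadjusted p under 0.05 there was 1 member (Rpl29, 1.25% of 80), against 5.85% of all genes, and it was lower in the knockout, as were 2.58% of all genes. DESeq2 called 0 members (0.713% of all genes called, lowest adjusted p of a member 0.141) and limma-voom called 0 (0.122% of all genes called).

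The estimates nonetheless lay on one side. The log2 fold change, knockout minus wild-type, was below 0 for 77 of 80 members, while 48.9% of all genes tested were below 0. The median over the members was -0.19, with 66 members between -0.3 and -0.1, and the median of all genes was 0.01. The large subunit had a median of -0.18 and the small subunit one of -0.21. Because the members vary together, these 77 estimates are far from 77 separate observations, and the median depended on single mice. It was -0.31 without the first knockout mouse and -0.10 without the second wild-type mouse, and the number below 0 was 79 and 72 in these fits. Groups did not overlap, with all knockout values lower, for 3 of 80 members (3.75%), Rpl29, Rpl23 and Rps27l, against 5.34% of all genes. No member had all its knockout values higher, against 5.86% of all genes.

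**Figure D1:**
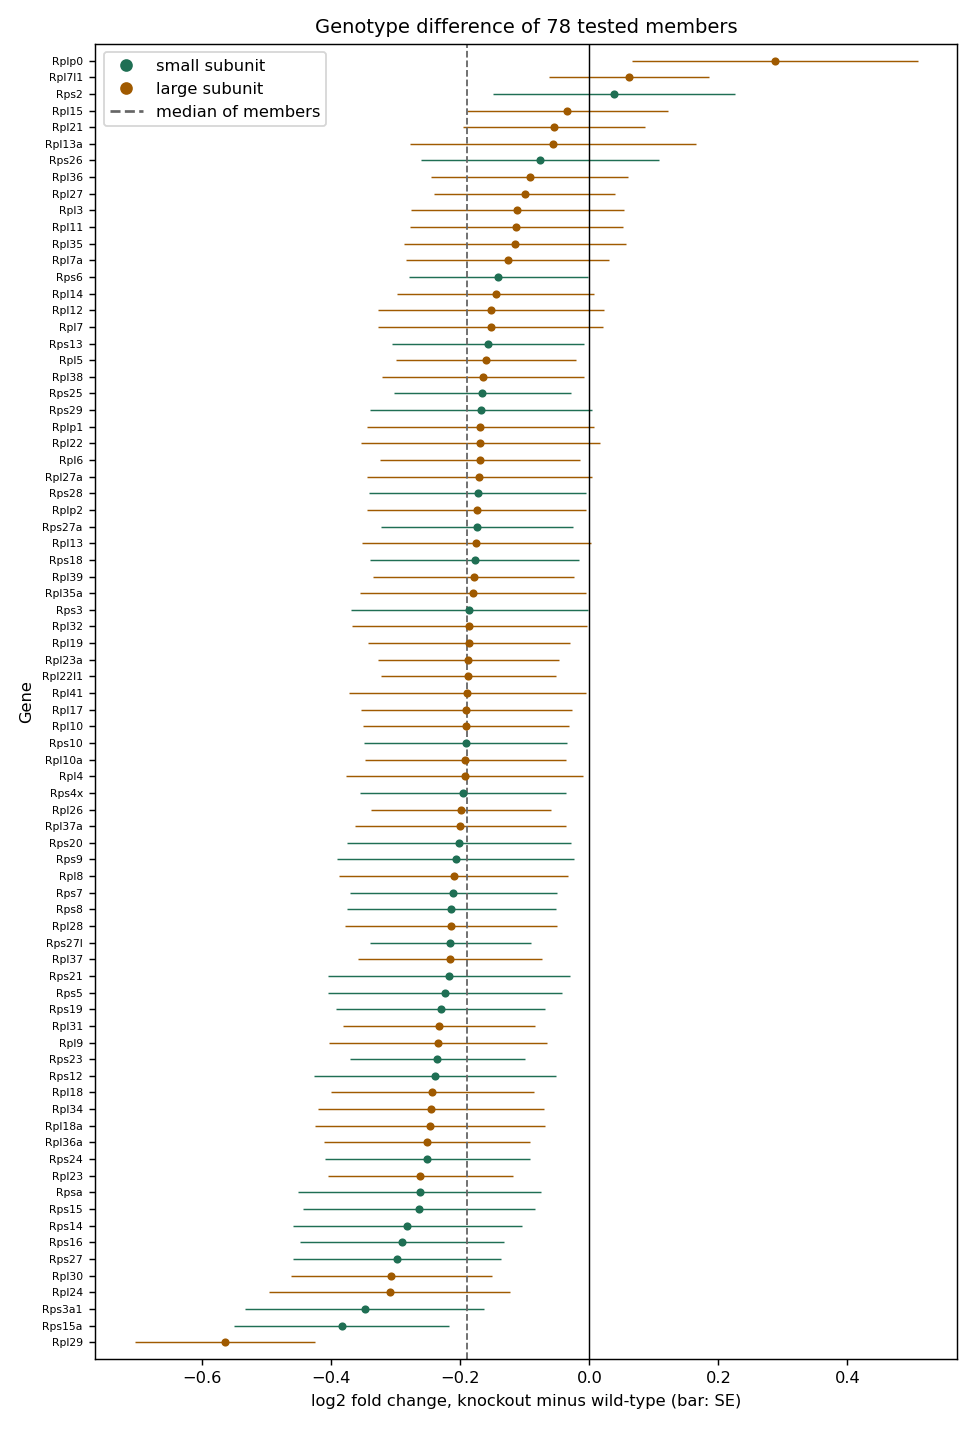
Log2 fold change (knockout minus wild-type, bar: SE, 3 libraries per group) of 78 tested members, one per line, coloured by subunit, with the members' median of -0.19 dashed. Rpl29 at -0.57 and Rplp0 at 0.29 are the ends of the range, and 75 of 78 points lie left of 0.

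The family took 2.80%, 1.90% and 2.23% of all counts in the 3 knockout mice, against shares of 2.54%, 2.69% and 2.18% in wild-type. The means were 2.31% ± 0.454 (SD, n = 3) and 2.47% ± 0.261 (SD, n = 3), and the groups overlapped, since the first knockout mouse had the highest share of all. The large-subunit genes took 1.33% ± 0.263 and 1.40% ± 0.139 of the counts, and the small-subunit genes 0.982% ± 0.191 and 1.07% ± 0.122. With mitochondrial genes and the abundant rRNA-derived row left out, the family's means were 2.40% ± 0.462 and 2.59% ± 0.293.

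The common movement is plain when each gene is set against its own mean. On the log2 CPM scale the median member deviated by 0.13, -0.19 and -0.22 in the knockout mice and by 0.08, 0.28 and -0.06 in the wild-type mice. The second wild-type mouse held the highest of the 6 values for 75 members. The first knockout mouse was the highest knockout for 79, and knockout mouse 2 or 3 was the lowest of all for 74. The groups therefore overlapped for the family as a whole: the first knockout lay above 2 of the 3 wild-type mice.

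The Pearson correlation of a member with the median of the other members, over the 6 libraries, had a median of 0.972 and was above 0.9 for 66 members. These points share the library, its depth and its scaling, so the correlation describes the libraries and no test was attached to it. The SD of a member over the 6 libraries had a median of 0.203 on the log2 scale, and 0.0567 once the family median of each library was subtracted. The median gene of the whole table had an SD of 0.253. Only 5 members had a correlation below 0.8: Rplp0 with -0.35, Rpl7l1 with 0.15, Rps2 with 0.47, Rpl29 with 0.70 and Rps26 with 0.78.

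**Figure D2:**
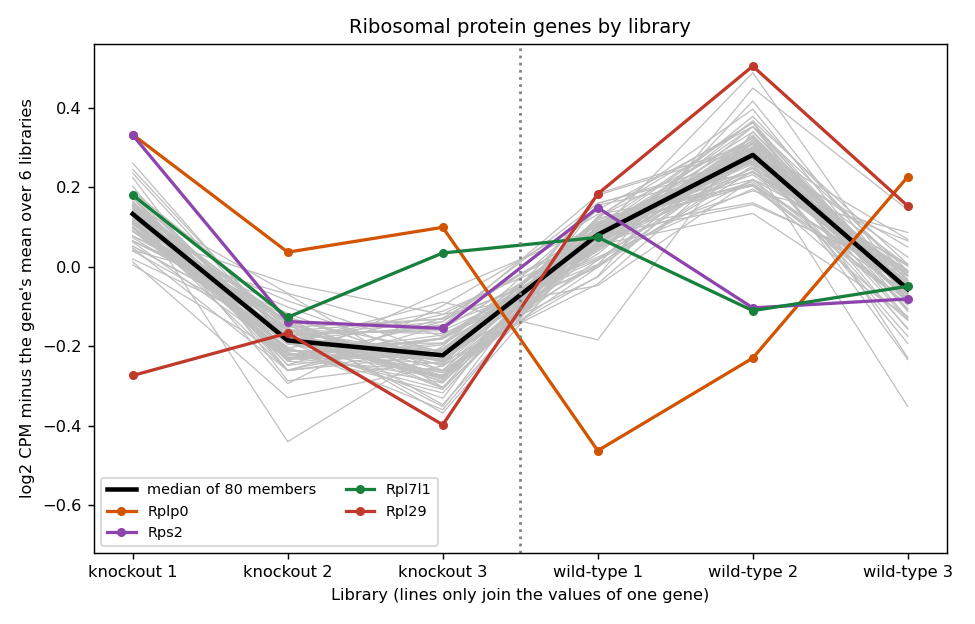
Deviation of log2 CPM from each gene's mean over 6 libraries, one line per tested member in grey, the family median in black and 4 genes that leave the common course in colour. The median runs from -0.22 in knockout 3 to 0.28 in wild-type 2, and Rplp0 is low in wild-type 1 and 2, where most other members are high.

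Rpl29 stood farthest below the family. It encodes a small basic protein of the large subunit that also occurs at the cell surface as a heparin-binding protein (Ensembl ENSMUSG00000048758, mm10 chr9:106429454-106431568, plus strand). Its level was 91.8, 98.9 and 84.3 CPM in the knockout mice and 126, 157.5 and 123 CPM in the wild-type mice. Every knockout value lay below every wild-type value. The log2 fold change was -0.57 ± 0.14 (SE), with an unadjusted p of 0.00477 and an adjusted p of 0.762 by edgeR. The first knockout mouse, high for the family, was not high for Rpl29, and the fold change relative to the members' median was -0.38. With single mice left out, its value stayed between -0.63 and -0.45. Its lowest adjusted p across the alternatives was 0.139, by edgeR without the second knockout mouse.

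The next estimates below the family median belonged to Rps15a, Rps3a1, Rpl24, Rpl30 and Rps27. Rps15a, of the small subunit, was at 162, 128 and 136 CPM in the knockout and 158, 220 and 178 CPM in the wild-type mice, a log2 fold change of -0.38 ± 0.17. Rps3a1, which contacts initiation factors on the small subunit, was at 338, 287 and 278 CPM against 357, 472 and 321 CPM, a log2 fold change of -0.35 ± 0.19. Both groups overlapped, in each case through the first knockout mouse. Rpl24, which forms a bridge to the small subunit, was the lowest of the tested members per exon length, at 26.4, 17.4 and 20.6 CPM against 26.1, 30.2 and 23.5 CPM (-0.31 ± 0.19). Rpl30, a large-subunit protein whose yeast counterpart binds its own transcript, was at 231, 189 and 169 CPM against 233, 267 and 228 CPM (-0.31 ± 0.16). Its first knockout value fell between the wild-type values. Rps16 (-0.29) and Rps23 (-0.24), the latter at the decoding centre, were, with Rpl29, Rps15a, Rps3a1, Rpl30, Rps27 and Rpl23, the 8 members with the smallest unadjusted p. Their adjusted p, by edgeR, ran from 0.762 to 0.802.

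Among the members with a link to p53, Rpl5 and Rpl11 form with 5S rRNA the particle that inhibits Mdm2. Rpl5 was at 291, 243 and 244 CPM in the knockout and at 277, 318 and 275 CPM in the wild-type mice, and its log2 fold change was -0.16 ± 0.14. Rpl11 was at 219, 173 and 175 CPM against 205, 235 and 173 CPM, with a log2 fold change of -0.11 ± 0.17. For both the first knockout mouse lay inside the wild-type range. Rpl23, another Mdm2 partner, was at 368, 303 and 298 CPM against 383, 410 and 369 CPM. The highest knockout and the lowest wild-type value of Rpl23 differed by less than 1 CPM, so the absence of overlap rests on a narrow gap. Rps27l, a p53-induced relative of Rps27, was at 85.2, 78.9 and 67.1 CPM against 86.0, 94.5 and 87.9 CPM, and here too the gap was under 1 CPM. The log2 fold changes of Rpl23 and Rps27l were -0.26 ± 0.14 and -0.22 ± 0.13, and that of Rps27, at 137, 111 and 114 CPM against 145, 175 and 126 CPM, was -0.30 ± 0.16.

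The stalk of the large subunit, which recruits the elongation factors, held one member that went its own way. Rplp1, Rplp2 and Rpl12 followed the family, with log2 fold changes of -0.17 ± 0.18, -0.17 ± 0.17 and -0.15 ± 0.18. Rplp0, the scaffold on which Rplp1 and Rplp2 assemble (chr5:115559467-115563727, plus strand), was at 1062, 865 and 904 CPM in the knockout mice and 612, 719 and 987 CPM in the wild-type mice. The groups overlapped through the third wild-type mouse, and the log2 fold change was 0.29 ± 0.22 (adjusted p 0.814 by edgeR). The other members with estimates above 0 were Rpl7l1, a relative of Rpl7 that acts in ribosome assembly, at 112, 90.2 and 101 CPM against 104, 91.3 and 95.2 CPM (0.06 ± 0.12), and Rps2, at the mRNA entry site. Rps2 was at 650, 470 and 464 CPM against 573, 481 and 489 CPM (0.04 ± 0.19).

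Ribosomal protein genes have many processed pseudogenes, copies of their spliced mRNA elsewhere in the genome. Reads that fit both may be counted at either or left out of the counts. The authors' treatment of such reads was not given in the sources used here. In the annotated principal transcripts of the 83 members, a median of 54.3% of all 31-base words also occurred in the transcripts of other genes. The share was 50% or more in 48 members, with a range from 0% in Rpl3l to 99.0% in Rpl35. Words were matched on either strand, and the other genes were not only pseudogenes. Rpl35 shared 567 words with Wdr38, which overlaps it on the opposite strand. Rpl7l1 shared words with 2318 genes, of which 23 were pseudogenes. The share is therefore not a measure of pseudogene copies alone. All member values are uncertain to the extent that reads were placed on copies or left out.

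For Rplp0 the pseudogene rows differed between libraries. Its pseudogene Gm8730 (chr8:102864779-102865853), which shares 580 of its words, held 25, 37 and 33 counts in the knockouts, against 5118, 5827 and 33 in wild-type. Gm9625 held 26, 38 and 37 against 1240, 1481 and 41 counts. Gm14165 held 29, 30 and 25 against 534, 633 and 21 counts, and Rplp0-ps1 held 13, 18 and 27 against 646, 751 and 34 counts. The high counts were in the first and second wild-type mice, in which the Rplp0 row was low. Whether reads of Rplp0 were placed on these copies was not tested. With the counts of all 5 sequence-sharing pseudogene rows joined to Rplp0, its level was 1066, 869 and 906 CPM in the knockout and 847, 995 and 990 CPM in the wild-type mice. The log2 fold change of the joined counts was 0.00 ± 0.17, and the correlation with the other members moved from -0.35 to 0.49.

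Other members had such rows too. A row of Rps26, Rps26-ps1, held 1271 counts in the first wild-type mouse and from 3 to 12 in the others, and joining moved the correlation of Rps26 with the family from 0.78 to 0.95 and its log2 fold change from -0.08 to -0.14. Rps2-ps10 held 1046 and 584 counts in wild-type mice 2 and 3 and from 101 to 115 in the others. With all its pseudogene rows joined, Rps2 moved from 0.04 to -0.01 and its correlation from 0.47 to 0.65. Rps15a-ps8 was the reverse in part, with 464, 372 and 509 counts in the knockouts against 483, 11 and 12 in wild-type, and Rps15a joined had a log2 fold change of -0.29 ± 0.15 in place of -0.38. For Rps3a1 the pseudogene rows, chiefly Rps3a3 with 3455, 2940 and 3811 against 3829, 2081 and 3730 counts, made up 24.3% of the joined counts. Rps3a1 joined had a log2 fold change of -0.24 ± 0.16 and a correlation of 0.99 in place of 0.94.

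Joining did not bring every member closer to the family. Rpsa-ps10 held 7, 22 and 11 counts in the knockouts against 2432, 5338 and 16 in wild-type, yet the Rpsa row itself was at 530, 419 and 399 against 533, 627 and 458 CPM and correlated at 0.99 with the family. Joined, Rpsa correlated at 0.95 and its log2 fold change was -0.46 ± 0.24 in place of -0.26. Rpl29, with 45 pseudogene rows that held 3.09% of its joined counts, kept its estimate at -0.56 ± 0.14 (unadjusted p 0.00508, adjusted p 0.796 by edgeR). Over all members, 696 pseudogene rows were joined to 77 members. After that 0 of 80 were called by edgeR, 1 had an unadjusted p under 0.05, 78 were below 0, the median was -0.19 and 71 correlated above 0.9. The lowest correlation was then 0.16.

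**Figure D3:**
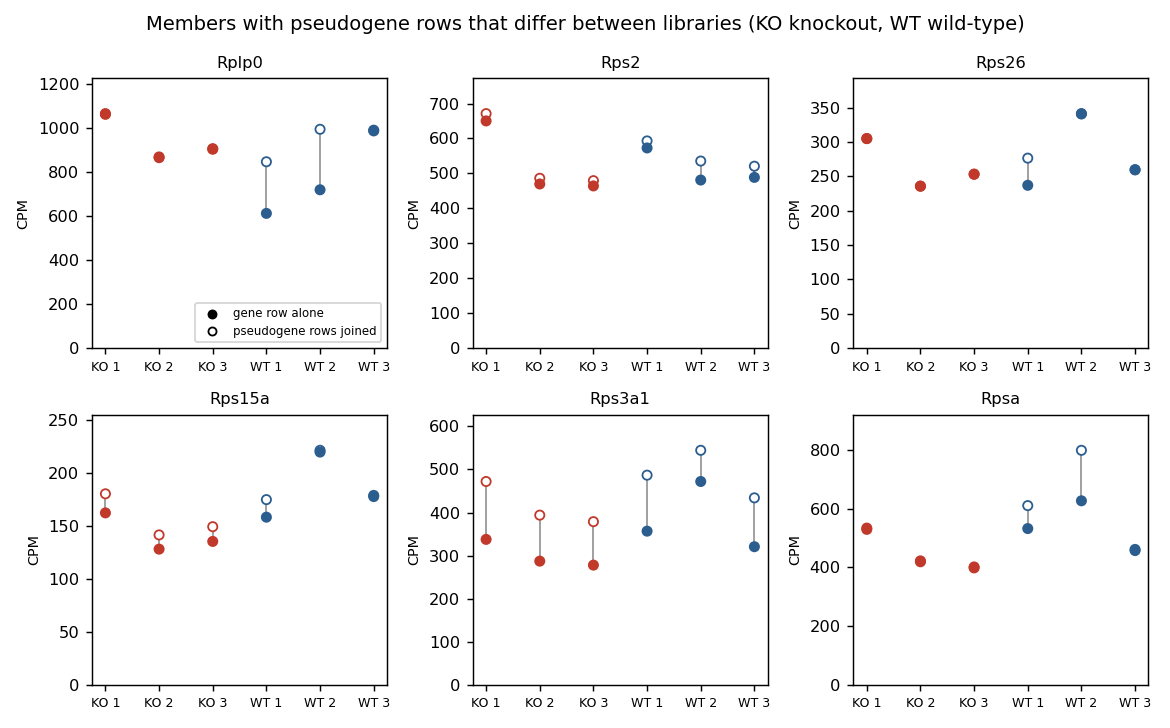
CPM (linear axes from 0) of 6 members in each library from the gene's own row (filled) and with the pseudogene rows that share its sequence joined (open). The gap is large in wild-type 1 and 2 for Rplp0 and Rpsa, in wild-type 1 for Rps26, and in all libraries for Rps3a1.

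Levels of different members were compared only per length. Per kilobase of all annotated exon, the mean of 6 libraries had a median of 130 CPM over the 80 tested members, and from Rpl24 (23.3) to Rplp1 (747) it spanned 32.0-fold. Other high members were Rpl4 with 527, Rpl8 with 524, Rplp0 with 517 and Rps15 with 452 CPM per kb. Rpl4 encodes one of the largest ribosomal proteins, which lines the peptide tunnel, Rpl8 lies near the peptidyl transferase centre and Rps15 near the decoding site. Rpl4 itself was at 1124, 917 and 919 CPM in the knockout and 1131, 1262 and 992 CPM in the wild-type mice. Among the 100 most abundant genes per exon length in the table, 9 were members. The order depends on the length used, since many of these genes have annotated isoforms with retained introns. Per kilobase of the principal transcript the median was 284 CPM and the range ran from 31.6 (Rps15a, whose principal transcript is annotated at 5179 bases) to 789 (Rps9), and 76 of 80 members lay within 4-fold of the median. On this scale Rplp1 stayed at 747, while Rps14 reached 775.

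**Figure D4:**
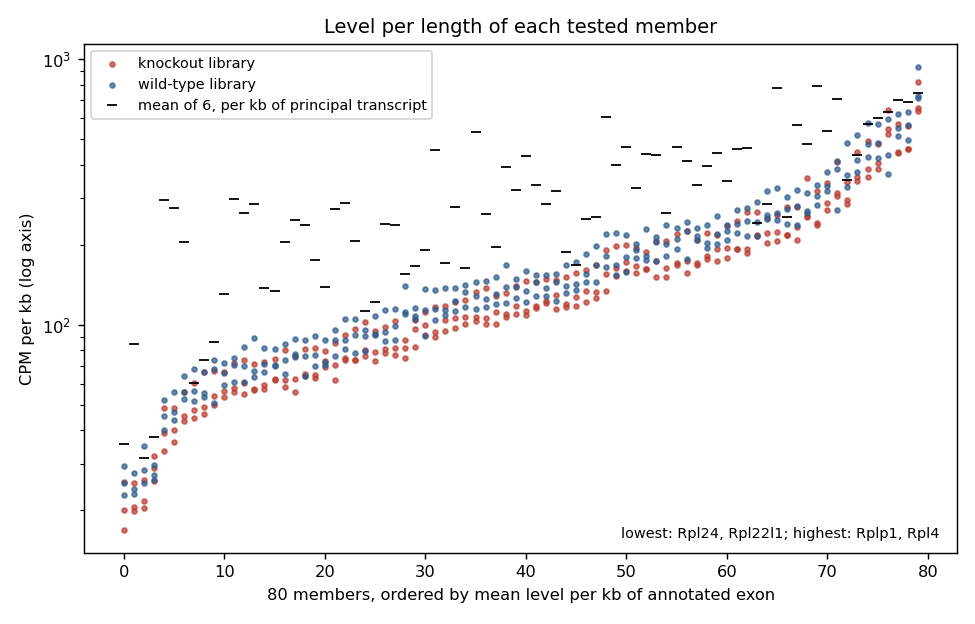
CPM per kilobase of annotated exon (log axis) of the 80 tested members in each of 6 libraries, ordered by their mean, with the mean per kilobase of the principal transcript as a dash. Rpl24 and Rpl22l1 are lowest and Rplp1 highest, and the dashes show that the order between changes with the length used.

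Paralogs with a tissue-restricted pattern had few or no counts. Rpl10l, a testis relative of Rpl10, and Rpl39l, a relative of Rpl39, held 0 counts in all 6 libraries, and Rpl3l, the striated-muscle relative of Rpl3, held 1, 7 and 14 counts in the knockouts against 5, 5 and 5 in wild-type. A count of 0 allows up to 3 counts per library. Their parents were abundant: Rpl10 was at 351 ± 30.9 and 400 ± 59.2 CPM (SD, n = 3), Rpl39 at 100 ± 14.9 and 114 ± 14.8 CPM, and Rpl3 at 413 ± 53.3 and 447 ± 52.6 CPM. Rpl22l1, which is kept low by its relative Rpl22 in several tissues, was expressed at 50.2, 39.7 and 40.9 against 47.9, 55.1 and 46.0 CPM. Its log2 fold change of -0.19 ± 0.14 was close to the -0.17 ± 0.19 of Rpl22. Rps4x, from the X chromosome, had -0.20 ± 0.16.

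Members with roles in signalling or disease had estimates between -0.28 and -0.08. Rps6, the substrate of S6 kinase downstream of mTOR, was at 309, 249 and 264 CPM against 303, 320 and 284 CPM, a log2 fold change of -0.14 ± 0.14. Rps3, which also takes part in DNA repair, was at 984, 753 and 762 against 945, 1037 and 861 CPM (-0.19 ± 0.18), and Rps15 had -0.26 ± 0.18. Of the genes mutated in Diamond-Blackfan anaemia or deleted in 5q- syndrome, Rps19 had -0.23 ± 0.16, Rps14 -0.28 ± 0.18, Rps24 -0.25 ± 0.16, Rpl35a -0.18 ± 0.17 and Rps26 -0.08 ± 0.18. In each of these the first knockout mouse lay above at least 1 wild-type mouse. The ubiquitin fusion gene Rps27a was at 286, 232 and 227 against 285, 304 and 254 CPM (-0.17 ± 0.15). Another fusion gene, outside the rule, was Fau at 223, 208 and 168 against 222, 287 and 221 CPM (-0.29 ± 0.17). Rpl13a (-0.06 ± 0.22), Rpl21 (-0.05 ± 0.14) and Rpl15 (-0.03 ± 0.16) lay above the members' median. With its pseudogene rows joined, Rpl15 had a log2 fold change of -0.11 ± 0.16.

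Members that move together were looked at for what their promoters share, in the RefSeq promoter table for GRCm38.p6, the same build as mm10. The table matched 63 members. A pyrimidine run at the start, defined as a C within 5 bases of the annotated start followed by at least 4 pyrimidines, was found in 29 members (46.0%) and in 21.2% of all 27025 genes of the table. CCGGAAG, the core of an ETS-family site, was present on either strand of the 300-base promoter in 26 members (41.3%) against 9.93% of all genes, TATAAA in 7 (11.1%) against 15.7%, and ATGGCGGC in 4 (6.35%) against 2.60%. A match is a description of the letters and says nothing of binding. Windows of 60 bases, from 40 before to 20 after the start, are shown for some of the members named above. Most of those shown have a pyrimidine run, in capitals, so they do not stand for the share of members with one. The runs of Rpl15, Rps6, Rplp2, Rps27 and Rps15a lie at the start, and those of Rps2 and Rps27l are short. The window of Rplp0 had no run by this definition, nor did those of Rps3a1, Rpsa and Rpl7l1, which are not shown. Rpl4, which correlated at 0.99 with the family, had none either. Starts were taken from the annotation, and whether a run goes with the common course was not tested.
Rpl15: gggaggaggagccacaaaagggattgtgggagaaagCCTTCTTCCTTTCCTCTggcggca
Rps6: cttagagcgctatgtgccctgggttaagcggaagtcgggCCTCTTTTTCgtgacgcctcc
Rplp2: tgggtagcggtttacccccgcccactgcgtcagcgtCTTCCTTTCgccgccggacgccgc
Rps27: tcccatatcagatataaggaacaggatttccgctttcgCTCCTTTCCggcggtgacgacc
Rps15a: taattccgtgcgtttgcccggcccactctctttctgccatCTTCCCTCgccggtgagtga
Rps2: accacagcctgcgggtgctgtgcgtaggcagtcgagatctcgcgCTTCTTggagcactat
Rps27l: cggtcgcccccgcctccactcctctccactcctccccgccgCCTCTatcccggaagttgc
Rplp0: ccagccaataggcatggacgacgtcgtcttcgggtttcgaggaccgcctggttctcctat

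These windows are at chr14:18270967-18271026 (Rpl15, minus), chr4:86857348-86857407 (Rps6, minus), chr7:141447611-141447670 (Rplp2, plus), chr3:90213629-90213688 (Rps27, minus), chr7:118116128-118116187 (Rps15a, minus), chr17:24720023-24720082 (Rps2, plus), chr9:66946046-66946105 (Rps27l, plus) and chr5:115559427-115559486 (Rplp0, plus). The genes themselves are spread over 19 chromosomes, with the largest number, 14, on chromosome 7.

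The members also share a habit of carrying small nucleolar RNAs, which guide rRNA modification, between the ends of the gene on the same strand. In the annotation, 30 of 83 members (36.1%) hosted 58 of them, against 1.54% of all 14760 protein-coding genes tested. Rpl4, for instance, hosts 5. The rows of these small RNAs together held 3118 counts over the 6 libraries. Of the 58 rows, 22 held 0 counts in all libraries and 25 had enough counts to be tested, and their levels are not described here. On the opposite strand, 17 members overlapped another annotated gene, and with no word on whether counting used strand, those reads cannot be told apart.

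The microRNAs deleted in the knockout share the seed at bases 2 to 8, in capitals below, whose match in an mRNA is CACTGCC. They are printed because the search for sites in the members rests on them.
mmu-miR-34a-5p: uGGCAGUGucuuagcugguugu
mmu-miR-34b-5p: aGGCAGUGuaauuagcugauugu

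Mature miR-34a-5p lies at chr4:150068473-150068494 (plus strand) and miR-34b-5p at chr9:51103610-51103632 (minus strand). The longest annotated 3′ UTR of 3 of 83 members (3.61%) held the match, against 16.7% of 14682 coding genes tested. The members' 3′ UTRs are short, with a median of 173 bases against 1142 bases, and the shares were not adjusted for length. The matches with 9 bases on either side were the following, with the match in capitals.
Rpl13a: cacttggagCACTGCCttgctcctt
Rpl6: aggcacataCACTGCCatggctgcc
Rps7: ttagaacttCACTGCCctccaactt

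All 3 had estimates below 0, but that of Rpl13a was above 0 with library size alone (0.0177), without the second knockout mouse (0.0209) and without the second wild-type mouse (0.0631). Rpl13a was at 864, 646 and 662 CPM in the knockout and 814, 873 and 571 CPM in the wild-type mice (-0.06 ± 0.22). Rpl6, a large-subunit protein, was at 439, 345 and 369 against 434, 468 and 394 CPM (-0.17 ± 0.15), and Rps7, of the small subunit, at 440, 388 and 351 against 442, 515 and 407 CPM (-0.21 ± 0.16). All 3 pairs of groups overlapped.

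Genes that make or control the ribosome were compared next. None of the genes of these lists passed the adjusted p by edgeR. Mitochondrial ribosomal proteins, which form the separate ribosome inside mitochondria, had estimates below 0 in 71 of 77 genes tested (92.2%, against 48.9% of all genes), with a median of -0.13. In 10 of them (13.0%, against 5.34% of all genes) all knockout values were lower. At an unadjusted p under 0.05, 2 of the 77 were lower, as were 2.58% of all genes. Mrpl3, a large-subunit protein of that ribosome, was at 43.5, 39.4 and 36.9 CPM in the knockout and at 53.03, 57.7 and 47.2 CPM in the wild-type mice. Its groups did not overlap, and its log2 fold change was -0.40 ± 0.12 (adjusted p 0.793 by edgeR). By library the median deviation of this list was 0.07, -0.09 and -0.21 in the knockout and 0.02, 0.17 and 0.04 in the wild-type mice, again highest in the second wild-type mouse. Translation factors and other known TOP mRNAs had 21 of 27 below 0 and a median of -0.15, with none at an unadjusted p under 0.05. The farthest above 0 was the histone chaperone Nap1l1, at 216, 126 and 167 against 152, 123 and 130 CPM (0.33 ± 0.21).

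Genes for the assembly of ribosomes had mostly estimates above 0. Of 64 genes for rRNA processing and ribosome assembly, 48 had estimates above 0 (75.0%), with a median of 0.10. By library their median deviation was 0.27, -0.17 and 0.04 in the knockouts against 0.03, -0.10 and -0.07 in wild-type, so that the highest and the lowest of the 6 values were both in knockout mice. In 4 all knockout values were higher (against 5.86% of all genes), and none had an unadjusted p under 0.05. Rrp12, an export and processing factor of both subunits, was at 33.5, 26.9 and 28.8 against 24.8, 21.8 and 25.8 CPM (0.30 ± 0.14), and Eif6, which keeps the large subunit from joining too early, was at 200, 264 and 184 against 226, 270 and 266 CPM (-0.23 ± 0.17). The 23 genes of rRNA transcription had a median of 0.01. Polr1a, the catalytic subunit of RNA polymerase I, was at 52.0, 48.2 and 54.4 against 48.8, 34.9 and 40.5 CPM (0.32 ± 0.14). The 29 regulators of ribosomal protein mRNA synthesis and translation had a median of 0.03. Among them Myc was at 99.1, 59.9 and 71.5 against 86.9, 86.0 and 63.6 CPM (-0.04 ± 0.22), and the groups overlapped. Pdcd4, an inhibitor of translation initiation, was at 91.5, 124 and 82.7 against 110, 159 and 128 CPM (-0.41 ± 0.20). Of 15 genes of the nucleolar stress and p53 response, 1 had an unadjusted p under 0.05, against 5.85% of all genes in either direction. It was Zmat3, a p53 target that binds RNA, at 47.8, 37.8 and 45.5 against 37.2, 30.8 and 33.6 CPM (0.37 ± 0.14, adjusted p 0.793 by edgeR).

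**Figure D5:**
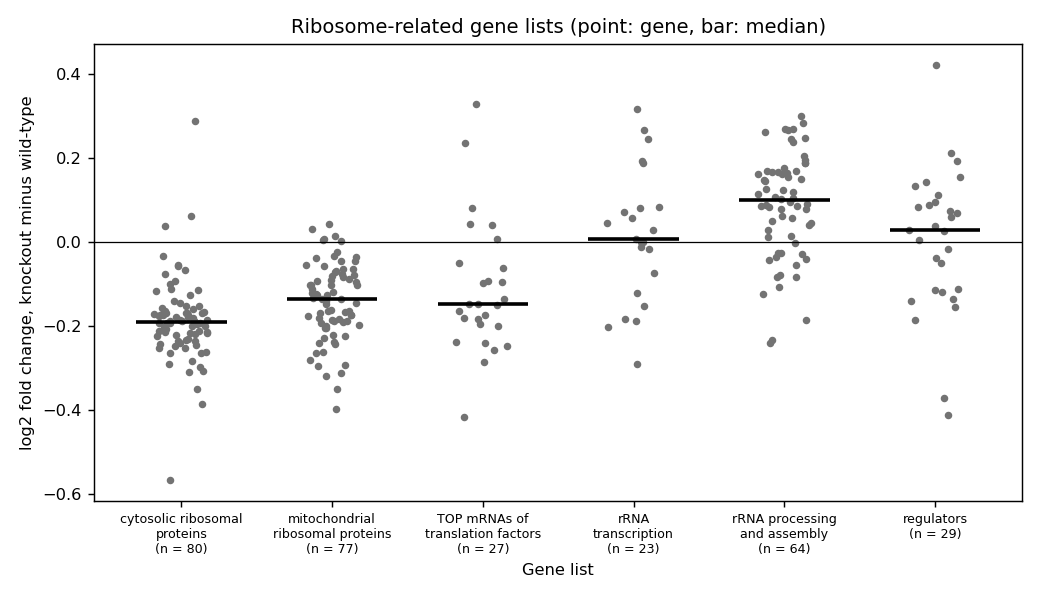
Log2 fold change (knockout minus wild-type) of every tested gene in 6 ribosome-related lists, with the median as a bar. The cytosolic (median -0.19) and mitochondrial (-0.13) ribosomal proteins lie mostly below 0 and the assembly factors (0.10) mostly above it, and no point passed the adjusted p.

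Markers of the cell types an adenoma can hold are given beside these values. No gene of these lists or of the proliferation list passed the adjusted p by edgeR (lowest 0.793). Markers of B and plasma cells had a summed level of 1623 to 4483 CPM in the knockouts against 5258 to 7818 CPM in wild-type, with 8 of 9 genes below 0 and 2 lower at an unadjusted p under 0.05, as were 2.58% of all genes. Their median deviation was lowest in the first knockout mouse (-0.93) and highest in the second wild-type mouse (0.79). Smooth muscle markers (8 of 8 above 0, 3 of them at an unadjusted p under 0.05, against 5.85% of all genes in either direction) summed to 562 to 661 CPM in the knockouts against 216 to 499 CPM in wild-type, and endothelial markers (7 of 8 above 0, 3 at an unadjusted p under 0.05) to 358 to 499 and 264 to 323 CPM. Epithelial markers had 11 of 12 below 0 and a median of -0.23, and 18 of 20 proliferation genes were above 0 with a median of 0.22. At an unadjusted p under 0.05 there were 0 epithelial and 2 proliferation genes. Fibroblast markers had 9 of 10 above 0, 2 of them at an unadjusted p under 0.05, with sums of 804 to 2863 and 483 to 1443 CPM that overlapped. T and NK cell markers had 8 of 10 below 0 (median -0.35, 1 at an unadjusted p under 0.05) and stem cell and Wnt genes 8 of 10 above 0 (median 0.28, 1 at an unadjusted p under 0.05). Macrophage and neutrophil markers had 6 of 10 above 0 (median 0.10, 0 at an unadjusted p under 0.05). Of 12 genes of skeletal and cardiac muscle, 3 were at 0 in all libraries and 4 were tested, with 0 at an unadjusted p under 0.05. Fewer cells of a type and less RNA per cell cannot be told apart in these pooled tumours, and the part of any of these cell types in the ribosomal protein values was not tested.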

How the data were processed

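RNA sequencing libraries of 6 ApcMin/+ mice were used, 3 with and 3 without the miR-34 genes, grouped by the sample titles. The authors deposited whole-number read counts per Ensembl gene, not normalized; TopHat2 2.1.0, HTSeq 0.6.1 and mm10 are named per the submitters' processing notes. The annotation release, the use of strand and the handling of multiply aligned reads were not given in the sources used here. A GENCODE M21 symbol was found for 45229 of 46078 identifiers and none for 849. Library totals were 26375035 to 38354355 counts. Limits for 0 counts cover counting error only.

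Counts were filtered with filterByExpr (17254 genes left), scaled by TMM (factors from 0.914 to 1.09) and compared over the whole table with the quasi-likelihood F-test of edgeR 4.0.16 in R 4.3.3, robust fitting, no covariate, Benjamini-Hochberg at 0.05. The biological coefficient of variation was 0.293 over all genes. The pipeline was tested on simulated data. Chi-square per degree of freedom between libraries was 47.0 or more. The alternatives were other scalings, filters and tools (DESeq2 1.42.0, limma-voom from limma 3.58.1), a replicate block, a sex term and each mouse left out. Sex was not taken from the labels but inferred from the counts of Xist against those of Kdm5d, Eif2s3y, Uty and Ddx3y. Joined pseudogene counts (at least 50 shared 31-base words) and lengths of principal transcripts were added after seeing the data. Words of 31 bases were sought, on either strand, in all GENCODE M21 transcripts, and the genome sequence was not used here. Promoters and mature miRNAs are from RefSeq.

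Members, gene lists and tests were chosen with earlier results of these data known. Members were named if they held a fixed role, were among the 6 highest per exon length, had 1 of the 8 smallest unadjusted p-values or lay among the 6 farthest above or below the members' median, and a few results are not reported here; Rpl6, Rps7, Rpsa, Rps9 and Rpl35 were named for other properties after their values were seen.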

Additional observations from a re-analysis of the deposited data

How the results depend on the processing

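No member was called by edgeR under any of the scalings, filters and fits tried, nor by DESeq2 or limma-voom, and the members' median log2 fold change stayed below 0. Leaving out single mice moved it between -0.31 and -0.10. For 39 named members 624 alternative values were computed, of which 16, in 6 members, had the other sign and none passed the threshold. With library size alone the log2 fold change was 0.00594 for Rps26, 0.0426 for Rpl15, 0.0172 for Rpl21 and 0.0177 for Rpl13a, and the members' median was -0.11. With single mice left out, the values ran from -0.0239 to 0.137 for Rpl7l1, from -0.145 to 0.117 for Rps2, from -0.197 to 0.0915 for Rps26, from -0.179 to 0.0483 for Rpl15, from -0.118 to 0.0486 for Rpl21 and from -0.220 to 0.0631 for Rpl13a. With pseudogene rows joined Rps2 was at -0.0110. The cause of these changes was not tested. Over all genes edgeR called 16, DESeq2 141 and the fits without 1 mouse from 9 to 41.

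In the labels, same-numbered mice of the 2 groups share only a number. Their deviations correlated at 0.27, 0.31 and 0.09, and 5 of 6 libraries correlated best with their own number. What else these mice may share is not given and was not tested. With the replicate number as a block, 14 genes and 0 members were called, the members' median was -0.19 and the lowest adjusted p of a member was 0.317 (edgeR). After adjustment, no single member could be told apart between genotypes with 3 mice per group.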

Other observations

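Of the 696 pseudogene rows that share sequence with a member, 11 rows of 7 members held at least 150 counts in some library and over 8 times the lowest library's count plus 1. This rule was chosen after the values were seen. Rows not described above were those of Rpl15 and Rpl3. Gm8420, which shares words with Rpl15, held 1, 1 and 1 counts in the knockouts against 1, 606 and 290 in wild-type, and Gm14094 held 1, 2 and 4 against 2, 159 and 83. With its rows joined Rpl15 had a correlation of 0.95 with the family in place of 0.86, and a log2 fold change of -0.11 in place of -0.03. Rpl3-ps1 held 0, 1 and 2 counts in the knockouts against 4, 4 and 377 in wild-type. The 11 rows thus had their high counts in different mice, wild-type 1 and 2 for Rplp0 and Rpsa, wild-type 1 for Rps26, wild-type 2 and 3 for Rpl15 and Rps2, wild-type 3 for Rpl3, and wild-type 1 with all 3 knockouts for Rps15a. Rows with smaller differences fell outside this rule. Gm10036, which shares 386 words with Rpl11, held 41, 46 and 44 counts in the knockouts against 173, 178 and 165 in wild-type. Gm10073, which shares 340 words with Rplp1, is annotated as protein-coding and was not joined. It held 880, 791 and 959 counts in the knockouts against 530, 558 and 562 in wild-type. Whether reads of Rpl11 or Rplp1 were placed on these rows was not tested. All 268 rows with a ribosomal protein pseudogene name took 0.0216%, 0.0159% and 0.0176% of the counts in the knockout and 0.0331%, 0.0331% and 0.0179% in the wild-type libraries, of which 29 rows had enough counts to be tested.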
